A study of Mus musculus with 12 samples.

Results

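The Ly6 genes followed here are Ly6e, Ly6a, Ly6i, Ly6c2 and Ly6c1, taken as the rows of the deposited mouse gene table whose symbol equals one of these names, 5 of 53465 genes. All 5 are protein coding and all 5 passed the filter for testing, which kept the 20419 genes that reached a value of 1 in 3 libraries or more. Ly6 genes encode small, disulfide-rich surface proteins that are held in the outer membrane by a glycosylphosphatidylinositol (GPI) lipid anchor. Several are induced by interferons, and the Ly6C antigen made from Ly6c1 and Ly6c2 is the usual surface mark of inflammatory monocytes. Lipopolysaccharide (LPS), the endotoxin of Gram-negative bacteria, acts on macrophages through Toll-like receptor signalling, which leads to interferon beta and then to JAK-STAT signalling and interferon-stimulated genes.

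RNA of peritoneal macrophages of C57BL/6 mice at postnatal week 10 was sequenced in bulk in 12 libraries, 3 in each of 4 groups. The groups carried the genotype label Lyz2Cre, in which Cre recombinase is driven from the Lyz2 locus of myeloid cells, or the label Lyz2Cre-BHLHE40-Fl, which adds a floxed allele of the transcription factor gene Bhlhe40, and each label came as control and as LPS-treated libraries. Cre was thus part of both labels. The sources used here give neither the LPS dose and time nor whether the 3 replicates of a group came from separate animals or cultures, so p-values measure the spread between these libraries, which may be technical. Values are a signal: each gene holds a whole number of reads that was scaled by 1 factor for the library. In bulk RNA, fewer cells of a type and less RNA per cell cannot be told apart.

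Between 20489417 and 29354869 reads were recovered per library. Bhlhe40 RNA stood at 4976 ± 295 (SD, n = 3) in the Lyz2Cre controls and was no lower, at 7893 ± 239 (n = 3), in controls with the Lyz2Cre-BHLHE40-Fl label. With LPS, Bhlhe40 stood at 2232 ± 244 (n = 3) under that label and at 2467 ± 226 (n = 3) under Lyz2Cre. Lyz2, whose locus drives Cre, averaged 766 and 970 in Lyz2Cre controls and LPS libraries, and 170 and 769 under the other label. Values are per gene, so reads outside a deleted part could not be set apart, and the direction of every comparison between genotypes rests on the label. The libraries in question are called BHLHE40-Fl-labelled below. All 10 macrophage markers were detected in every group, which asks for a value of 1 in at least 1 library. Their summed values were 122300 to 135400 in Lyz2Cre controls and 63540 to 71740 in BHLHE40-Fl-labelled controls. Cd68 led both sums, at means of 45310 and 44200. Other markers were much lower in the BHLHE40-Fl-labelled controls. Means were 9695 and 1179 for Itgam, 4862 and 637 for Fcgr1, 8294 and 1431 for Cd14, and 30460 and 5635 for Adgre1. Cd163 read 2.3, 0 and 0 in the BHLHE40-Fl-labelled LPS libraries.

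All 5 genes lie within 156.9 kb of chromosome 15 (mm10, GENCODE M21 annotation), between 74955051 and 75111970, as separate 3-coding-exon genes. Ly6e (ENSMUSG00000022587, 74955051 to 74959905, plus strand) encodes an interferon-inducible protein also known as thymic shared antigen. Ly6i (ENSMUSG00000022586, 74979534 to 74983430, minus strand) encodes a less studied member of the family. Ly6a (ENSMUSG00000075602, 74994877 to 74998031, minus strand) encodes stem cell antigen Sca-1. Ly6c1 (ENSMUSG00000079018, 75044018 to 75048830, minus strand) and Ly6c2 (ENSMUSG00000022584, 75108158 to 75111970, minus strand) encode the close copies that make up Ly6C.

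Sequence similarity sets how far reads can be given to one member. The coding sequences of Ly6c1 and Ly6c2 were 97.7% identical, with 9 differing bases among 396. The stretch below is the 60-base window that separates the copies best, with the 6 bases that differ in capitals (coding bases 6 to 65, mm10 chromosome 15, minus strand, 75048447 to 75048506 for Ly6c1 and 75111603 to 75111662 for Ly6c2).

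Ly6c1: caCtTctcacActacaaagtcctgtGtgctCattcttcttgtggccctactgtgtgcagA

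Ly6c2: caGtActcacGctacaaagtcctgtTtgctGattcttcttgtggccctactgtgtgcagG

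By contrast, coding bases 71 to 187 are the longest run within 1 exon in which the copies are the same. It is shown because a read from these 117 bases matches both genes (minus strand, 75047353 to 75047469 for Ly6c1 and 75110511 to 75110627 for Ly6c2).

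Ly6c1 and Ly6c2: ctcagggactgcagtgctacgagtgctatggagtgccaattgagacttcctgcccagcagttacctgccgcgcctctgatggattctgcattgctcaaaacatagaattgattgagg

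Among the transcripts of all annotated genes, 36.7% of the 50-base windows of the main Ly6c1 transcript and 33.0% of those of Ly6c2 also occurred in another gene. For 100-base windows the shares were 15.3% and 15.8%, all shared between the copies. Ly6a shared 8.1% of its 50-base windows and Ly6i 5.0%, and neither shared a 100-base window. Ly6e shared none at either length, and its coding sequence was 58.8% to 60.9% identical to those of the other 4 genes. For read length, and for how reads that match several genes were treated, nothing is given in the sources used here, so single values of Ly6c1 and Ly6c2, and to a lesser extent of Ly6a and Ly6i, are uncertain.

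In the promoter windows compared here, the copies differ more than in their coding sequences. Promoters of 2 of the 5 members, Ly6c1 and Ly6c2, were in the RefSeq table used (GRCm38.p6, 250 bases before to 50 after a gene's start). Each gene had 2 such windows, with different starts, and only the first listed of each was aligned, so the identity depends on that choice. In the 300-base windows, 208 of 266 aligned bases (78.2%) were identical. The 250 bases before the start are shown with the bases that differ or have no aligned partner in capitals, from 75048838 to 75049087 for Ly6c1 and from 75111972 to 75112221 for Ly6c2 on the minus strand.

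Ly6c1: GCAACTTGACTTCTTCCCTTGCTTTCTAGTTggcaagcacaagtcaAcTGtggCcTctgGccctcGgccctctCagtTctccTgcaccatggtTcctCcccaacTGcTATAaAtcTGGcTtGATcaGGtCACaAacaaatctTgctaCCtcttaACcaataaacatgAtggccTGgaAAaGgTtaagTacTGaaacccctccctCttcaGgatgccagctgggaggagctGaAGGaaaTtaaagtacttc

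Ly6c2: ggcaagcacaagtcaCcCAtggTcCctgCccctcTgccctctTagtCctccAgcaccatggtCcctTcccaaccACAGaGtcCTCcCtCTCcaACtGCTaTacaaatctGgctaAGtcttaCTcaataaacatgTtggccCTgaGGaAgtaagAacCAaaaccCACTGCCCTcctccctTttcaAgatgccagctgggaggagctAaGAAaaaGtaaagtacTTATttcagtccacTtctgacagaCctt

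On both strands, neither window held the letters TTCNNNGAA, searched as a gamma-activated site, which occurred in 8.3% of 32851 promoters of this length. The letters GAAANNGAA, searched as an interferon-stimulated response element, were in neither window and in 8.56% of all promoters. No match says only that these letters are not in these windows.

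In Lyz2Cre libraries 4 of the 5 genes were expressed at high or moderate levels, and in BHLHE40-Fl-labelled controls the same 4 were near 0 or far lower. Ly6e was the highest member in every library. It made up 82.79% to 87.17% of the summed value of the 5 genes in the 6 Lyz2Cre libraries and 98.74% to 100% in the 6 BHLHE40-Fl-labelled ones. Per kilobase of annotated exon, the level in Lyz2Cre controls was 4540 for Ly6e, 1221 for Ly6i, 444 for Ly6c2, 119 for Ly6a and 0.159 for Ly6c1 (means of 3). The order of Ly6i and Ly6c2 depends on the length used: per kilobase of the main transcript, Ly6c2 stood at 1481 (1261 to 1650) and Ly6i at 1221 (857 to 1446), with overlapping ranges. The other neighbours in this order did not overlap under either length.

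**Figure D1:**
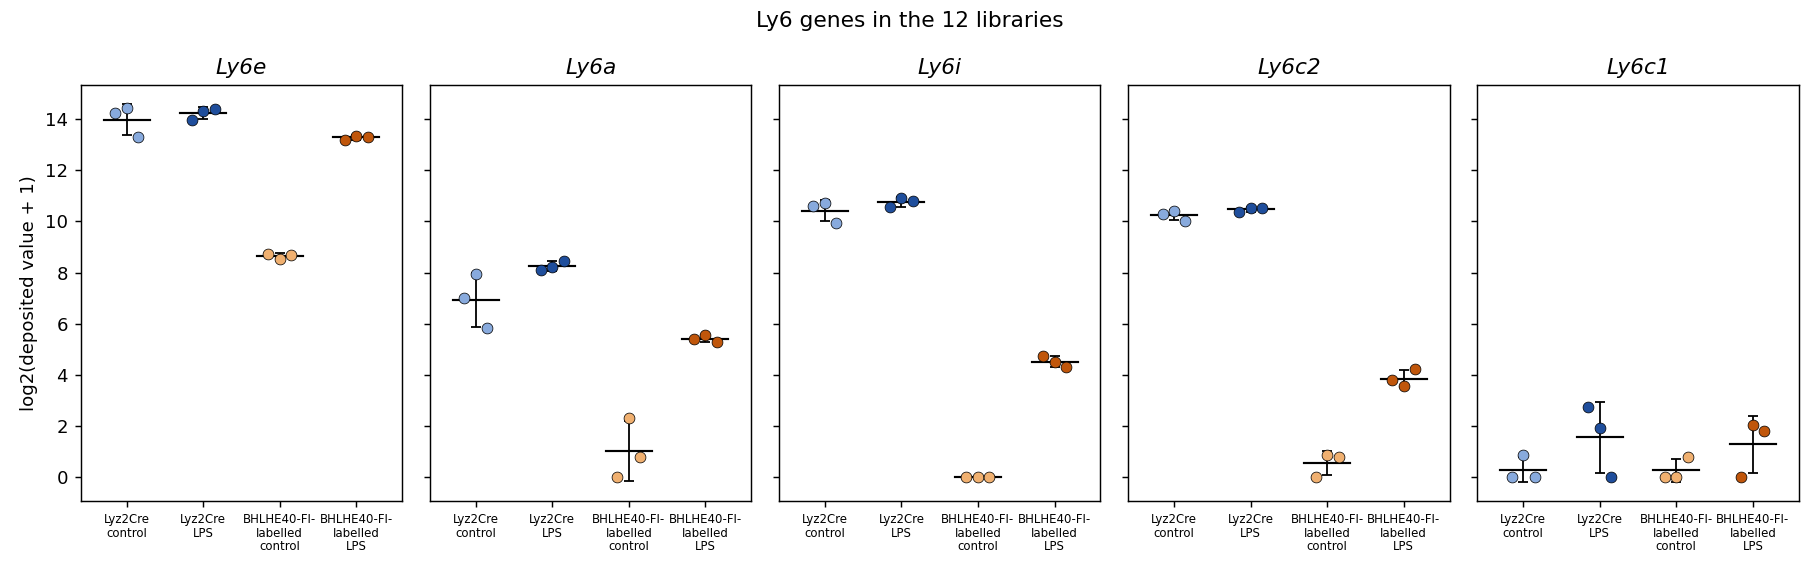
Value of each Ly6 gene in each of the 12 libraries, as log2(deposited value + 1), in 4 groups of 3 libraries (points), with the mean (line) and SD (bar). Ly6e, Ly6a, Ly6i and Ly6c2 sit lowest in the BHLHE40-Fl-labelled controls and are higher again with LPS, with Ly6e the nearest to its Lyz2Cre level, while Ly6c1 stays near 0 throughout.

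Ly6e stood at 19287.1, 22235.3 and 10021.1 in the Lyz2Cre controls and at 420.9, 368.7 and 415.2 in the BHLHE40-Fl-labelled controls. With LPS its values were 15983.8, 20437.5 and 21825.5 in the Lyz2Cre libraries and 9335.7, 10518.5 and 10130.9 in the BHLHE40-Fl-labelled libraries. Between labels in controls the values of 4 of the 5 members did not overlap, as for 41.3% of all tested genes, and with LPS again 4 of 5 against 45.9%. For Ly6e the labels did not overlap within either treatment, and the 3 BHLHE40-Fl-labelled controls lay far below all 9 other libraries. The 3 Lyz2Cre controls and the 3 Lyz2Cre LPS libraries overlapped.

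Ly6a, the Sca-1 gene, had values of 127.8, 245.6 and 56.1 in the Lyz2Cre controls and of 271.0, 297.9 and 348.4 with LPS. In the BHLHE40-Fl-labelled libraries it was at 0, 3.9 and 0.7 in controls, 6 reads in all, and at 41.0, 46.0 and 37.6 with LPS. Between LPS and control libraries, Ly6a was the only member whose groups did not overlap in Lyz2Cre (54.5% of all tested genes), and 1 of 4 such members under the other label (55.6%). The Lyz2Cre controls spread 4.38-fold from lowest to highest.

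Ly6i was measured at 1572.7, 1671.4 and 990.7 in the Lyz2Cre controls and at 1503.5, 1951.8 and 1799.5 with LPS. It had no read in any BHLHE40-Fl-labelled control and values of 25.7, 21.5 and 18.8 with LPS under that label. Ly6i was therefore detected in both Lyz2Cre groups, at overlapping values, and under the other label only with LPS.

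Ly6c2, the copy that carried nearly all reads assigned to Ly6C, read 1259.4, 1356.1 and 1036.8 in the Lyz2Cre controls and 1310.3, 1477.3 and 1488.4 with LPS. The BHLHE40-Fl-labelled controls held 0, 0.8 and 0.7, which is 2 reads in all, and the LPS libraries of that label held 12.9, 10.7 and 17.5. The highest BHLHE40-Fl-labelled library lay far below the lowest Lyz2Cre library.

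Ly6c1 was at the limit of detection, with 1 read in the Lyz2Cre controls, 6 in the Lyz2Cre LPS libraries, 1 in the BHLHE40-Fl-labelled controls and 4 in the LPS libraries of that label. Its highest value in any library was 5.6, and all pairs of groups overlapped. Ly6g, the neutrophil antigen gene beside Ly6c2, was 0 in all 12 libraries.

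A sum does not depend on how reads were split among its own members, although reads that were dropped, or shared with genes outside it such as I830127L07Rik, stay uncertain. Ly6a, Ly6c1, Ly6c2 and Ly6i together stood at 2959.9, 3273.9 and 2083.6 in the Lyz2Cre controls and at 3090.4, 3729.8 and 3636.3 with LPS. Under the BHLHE40-Fl label the sum was 0, 4.7 and 2.1 in controls and 79.6, 81.3 and 76.4 with LPS. The order of the group means in the sum was that seen for Ly6e, Ly6a, Ly6i and Ly6c2 alike.

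Genotype labels were first compared in the control libraries, without LPS. In controls, 4 of the 5 genes were lower in the BHLHE40-Fl-labelled libraries and Ly6c1 did not pass the test, beside 16.6% of all tested genes called lower (31.6% in either direction). All tests are limma fits across the 20419 genes, with Benjamini-Hochberg adjusted p below 0.05 as the call, and log2 differences were taken after adding 1 to each value, which understates the change of low genes. Ly6i was lower by 10.43 on the log2 scale, given as -10.43 (SE 0.208, adjusted p = 2.21e-16), and at least 1893-fold lower against a floor of 3 reads over the group. No other tested gene had a larger decrease on this scale. Ly6c2 differed by -9.70 (SE 0.236, adjusted p = 2.25e-15), a ratio of 2435 with an exact Poisson interval of 678 to 20217 (95%, counting error only). Only 2 tested genes had a larger decrease.

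The difference of Ly6a was -5.91 (SE 0.497, adjusted p = 3.47e-08), 93.4-fold lower, and 35 genes had a larger decrease. For Ly6e it was -5.34 (SE 0.197, adjusted p = 4.94e-13), 42.8-fold lower, and 55 genes had a larger decrease. Ly6c1 differed by -0.03 (SE 0.689, adjusted p = 0.993), which the 1 read in each group cannot resolve.

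With LPS the same 4 genes were lower in the BHLHE40-Fl-labelled libraries, by very unequal amounts, beside 19.8% of all tested genes called lower (37.4% in either direction). Ly6e in these libraries stood at 51.5% of its Lyz2Cre level with LPS, Ly6a at 13.6%, Ly6i at 1.26% and Ly6c2 at 0.961%. Ly6c2 differed by -6.62 (SE 0.236, adjusted p = 5.08e-13), 104-fold lower, with 3 genes showing a larger decrease. Ly6i differed by -6.25 (SE 0.208, adjusted p = 2.25e-13), 79.6-fold lower, with 4 genes showing a larger decrease. These values place both among the largest decreases of this comparison, while Ly6e was well inside the range of other genes.

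For Ly6a the difference with LPS was -2.85 (SE 0.497, adjusted p = 0.000183), 7.36-fold lower, and for Ly6e it was -0.95 (SE 0.197, adjusted p = 0.000926), 1.94-fold lower. Ly6c1 differed by -0.27 (SE 0.689, adjusted p = 0.805). The direction of all 4 called differences, without and with LPS, was also the direction under each scaling that was tried.

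**Figure D2:**
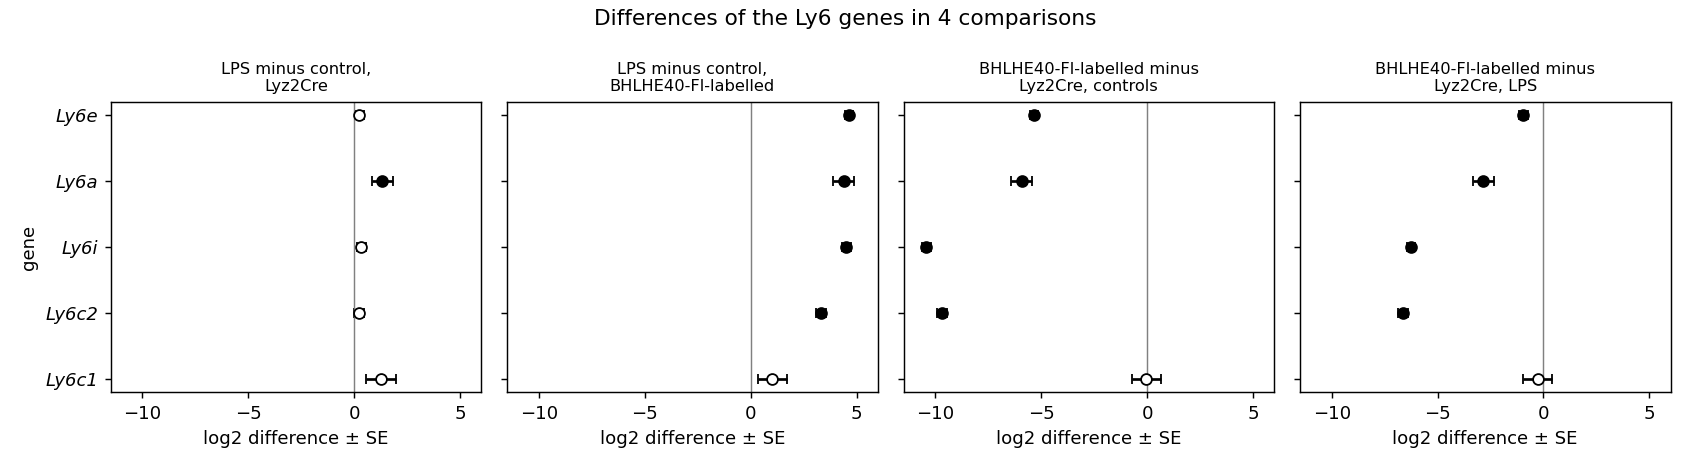
Log2 difference with its SE for each Ly6 gene in 4 comparisons (limma on log2(value + 1), 3 libraries a group); filled points passed an adjusted p below 0.05 and open points did not. LPS moved 4 genes in the BHLHE40-Fl-labelled libraries by 3.31 to 4.63, and the differences between labels with LPS range from -0.95 for Ly6e to -6.62 for Ly6c2 among called genes.

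LPS itself raised 4 of the 5 genes in the BHLHE40-Fl-labelled libraries, where 24.9% of all tested genes were called higher (50.5% in either direction). Ly6e rose by 4.63 (SE 0.197, adjusted p = 7.88e-13), 24.9-fold. Ly6i rose by 4.51 (SE 0.208, adjusted p = 2.39e-12), at least 29.5-fold against the floor of 3 reads. Ly6a rose by 4.39 (SE 0.497, adjusted p = 6.45e-07), 27.1-fold. For genes near 0 in the controls, the size depends on the number added before the log: with 0.1 in place of 1 the changes were 7.78 for Ly6i and 5.92 for Ly6a, with 5 they were 2.42 and 2.87, and Ly6e stayed at 4.64 and 4.62.

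Ly6c2 rose by 3.31 (SE 0.236, adjusted p = 1.24e-09), a ratio of 27.4 with an exact Poisson interval of 7.63 to 228. Its change was 5.02 with 0.1 added and 1.75 with 5 added. Ly6c1 differed by 1.03 (SE 0.689, adjusted p = 0.238).

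In Lyz2Cre libraries LPS raised 1 of the 5 genes, beside 25.0% of all tested genes called higher (48.9% in either direction). Ly6a rose by 1.32 (SE 0.497, adjusted p = 0.0352), 2.14-fold, higher in all 3 LPS libraries than in all 3 controls. This call rested on the libraries used: without Lyz2Cre control replicate 3 the difference was 0.78 (adjusted p = 0.207), and it also missed the threshold without any one of 4 other Lyz2Cre libraries, control replicate 1 or an LPS replicate (adjusted p of 0.0634 to 0.109). With library totals made equal it was 0.60 (adjusted p = 0.372). The differences of Ly6i (0.34, SE 0.208, adjusted p = 0.198), Ly6e (0.24, SE 0.197, adjusted p = 0.344) and Ly6c2 (0.23, SE 0.236, adjusted p = 0.458) did not pass. With equal totals they became -0.39, -0.49 and -0.49, all above the median of all tested genes under that scaling (-0.58). Quantile normalization gave -0.85 for Ly6e (adjusted p = 0.00174), and leaving out Lyz2Cre control replicate 3 gave -0.11.

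Ly6c1 differed by 1.27 (SE 0.689, adjusted p = 0.146) on 1 read against 6. Without Lyz2Cre LPS replicate 3, which held none of them, its difference was 2.04 (adjusted p = 0.0184).

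The change with LPS was compared between labels directly. It was larger in the BHLHE40-Fl-labelled libraries for Ly6e by 4.39 (SE 0.279, adjusted p = 5.12e-09), for Ly6i by 4.17 (SE 0.294, adjusted p = 1.73e-08), for Ly6c2 by 3.08 (SE 0.333, adjusted p = 2.69e-06) and for Ly6a by 3.06 (SE 0.702, adjusted p = 0.00451). These 4 of 5 genes stood beside 9.52% of all tested genes called in this direction (18.8% in either). All 4 stayed called with 0.1 or 5 added to the values in place of 1, but only the size for Ly6e held (4.39 and 4.38). With 0.1 and with 5 the differences were 7.44 and 2.09 for Ly6i, 4.79 and 1.52 for Ly6c2, and 4.59 and 1.59 for Ly6a. For Ly6c1 the value was -0.24 (SE 0.974, adjusted p = 0.908). The comparisons share groups, so their results are not independent of each other.

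Scaling shifts what counts as no change. Making library totals equal moved the median of all tested genes to -0.58 for LPS in Lyz2Cre, -0.56 for LPS in BHLHE40-Fl-labelled libraries, 0.17 between labels in controls and 0.22 with LPS. The share of called genes that were higher then fell from 51.2% to 20.1% and from 49.3% to 21.5% for the LPS comparisons. It went from 47.5% to 66.9% between labels in controls, from 47.2% to 73.5% with LPS, and from 50.5% to 64.1% for the difference in LPS change.

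Interferon-stimulated genes moved with LPS under both labels. All 25 listed genes were higher with LPS in both, beside 25.0% and 24.9% of all tested genes called higher. Their median was 5.56 in Lyz2Cre and 7.63 in BHLHE40-Fl-labelled libraries, against medians of all tested genes of 0.00 and -0.05. All 25 were lower in BHLHE40-Fl-labelled controls (median -2.93, range -6.56 to -1.12), beside 16.6% of all tested genes. With LPS, 2 of the 25 were lower between labels and none was higher (median -0.31, range -1.23 to 0.37), beside 19.8% of all tested genes called lower. The 2 were Ifih1 and Gbp2, an RNA sensor and a guanylate-binding protein. With equal totals the counts with LPS were 0 lower and 1 higher. The test takes 1 estimate of the spread from all 4 groups, so scatter in the controls also enters this comparison. Without Lyz2Cre control replicate 3 the counts with LPS were 6 lower and 1 higher. Ifit3, an interferon-induced antiviral gene, stood at a mean of 1206 in Lyz2Cre controls and 11.6 in BHLHE40-Fl-labelled controls, and at 54470 and 45510 with LPS.

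Set beside the Ly6 genes, the differences of Ly6i and Ly6c2 with LPS lay below all 25 values of this list, as did that of Ly6a (-2.85), while Ly6e (-0.95) lay within their range. In controls, Ly6i and Ly6c2 again lay below all 25, and Ly6a and Ly6e lay within the range. This is a description of a list chosen with earlier results known, not a test of the members.

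**Figure D3:**
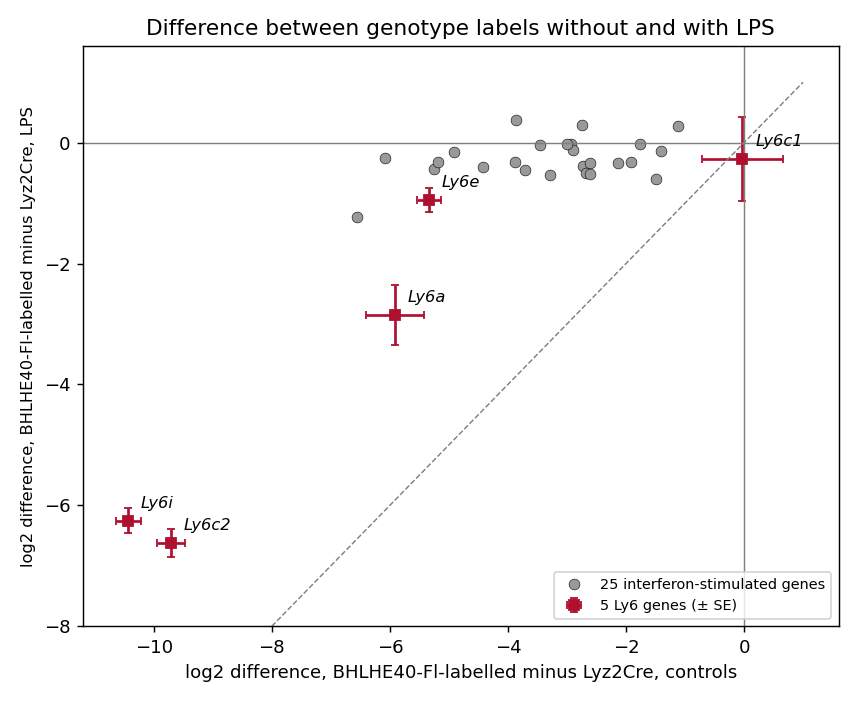
Log2 difference between genotype labels in controls (x axis) and with LPS (y axis) for the 5 Ly6 genes (squares, with SE) and 25 interferon-stimulated genes (grey circles); the dashed line marks equal differences. The grey circles lie between -1.23 and 0.37 on the y axis, whereas Ly6i and Ly6c2 lie at -6.25 and -6.62.

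Genes of the interferon pathway itself, 14 in all, were higher with LPS in 12 cases and lower in 1 under each label. Between labels in controls, 10 were lower and none higher, with Irf7, a transcription factor that drives type I interferon, at -4.97 (adjusted p = 1.15e-08). With LPS 7 were lower and none higher (4 lower and 3 higher with equal totals). Ifnb1, interferon beta, was at a mean of 692.6 in Lyz2Cre and 94.8 in BHLHE40-Fl-labelled LPS libraries (-2.80, adjusted p = 0.000181). The change with LPS was larger in BHLHE40-Fl-labelled libraries for 8 of the 14 and smaller for 2, Ifnb1 among them.

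The rest of the Ly6 and uPAR family moved in both directions. Of 40 listed genes 33 were in the table and 11 were tested. In controls 4 were lower in BHLHE40-Fl-labelled libraries and 1 higher, beside 31.6% of all tested genes called in either direction. With LPS 3 were lower and 2 higher, beside 37.4%. With equal totals the counts lower and higher became 3 and 1 in controls, and 1 and 2 with LPS. Ly6d, a lymphoid member, fell from 9.77 to 1.93 between labels in controls (-2.08, adjusted p = 0.00634). Plaur, the urokinase receptor, averaged 2970 and 2527 in the controls and rose with LPS by 2.01 and 2.68. Cd177, a neutrophil surface gene, was at 12.5 and 0.5 in controls (-3.21, adjusted p = 0.00158). Lypd1 went the other way at low values, with means of 1.57 and 6.87 in controls (1.77, adjusted p = 0.0298). With LPS its means were 0.467 and 5.1 (2.14, adjusted p = 0.00808).

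Genes that build and attach the GPI anchor, 30 tested, showed no common direction: 7 were higher and 7 lower with LPS in Lyz2Cre, 8 and 9 in BHLHE40-Fl-labelled libraries, 4 and 4 between labels in controls, and 5 and 9 with LPS. With equal totals these counts became 3 and 26, 3 and 24, 7 and 2, and 12 and 2. Another 21 GPI-anchored surface genes were lower between labels in controls in 11 cases and higher in 5, and with LPS in 9 and 7. With equal totals these became 9 and 6 in controls, and 9 and 9 with LPS. Of all tested genes, 31.6% and 37.4% were called in either direction in these comparisons before that rescaling. Bst1, a GPI-anchored ectoenzyme, was lower under the BHLHE40-Fl label in both treatments (-4.52, adjusted p = 1.42e-16 and -3.92, adjusted p = 1.71e-15). Cd55, a complement regulator, was higher in controls (4.06, adjusted p = 3.67e-11).

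By a fixed rule, the genes nearest to each member over the 12 libraries were those with the smallest root mean square log2 difference after centring. For Ly6c2 these were Ly6i (0.524), Orm1 (0.554) and Hp (0.714), and for Ly6i they were Ly6c2 (0.524), Orm1 (0.714) and Lcn2 (0.737). Ly6c2 and Ly6i were each other's nearest gene among all tested genes. Orm1 and Hp encode acute phase plasma proteins and Lcn2 an iron-siderophore binding protein. Orm1 stood at means of 978 and 1104 in the Lyz2Cre controls and LPS libraries, and of 0.233 and 8.0 in the BHLHE40-Fl-labelled ones.

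Nearest to Ly6e were Ifi27l2a (0.499), Arg2 (0.503) and Slc6a12 (0.566), and nearest to Ly6a were H2-Q7 (0.665), Ifi27l2a (0.744) and Pilrb1 (0.746). Ifi27l2a is an interferon-inducible gene and H2-Q7 a non-classical MHC class I gene. Ly6e had rank 10 by likeness to Ly6a. The likeness of Ly6c1, at 0 to 5.6, to low genes such as Pou3f2, Slc26a8 and Riiad1 carries no information beyond their low values.

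Replicates of the Lyz2Cre controls were not alike for these genes. Replicate 3 was the lowest of the 3 for 4 of the 5 members and for 24 of the 25 interferon-stimulated genes, against 33.1% of all tested genes. Replicate 2 was the highest for all 5 members and for all 25, against 32.3%. Ifit3 stood at 832.2, 2509.6 and 274.7 in these 3 libraries, and Ly6a at 127.8, 245.6 and 56.1. Without replicate 3 the decrease in BHLHE40-Fl-labelled controls was still called for Ly6e, Ly6a, Ly6i and Ly6c2.

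**Figure D4:**
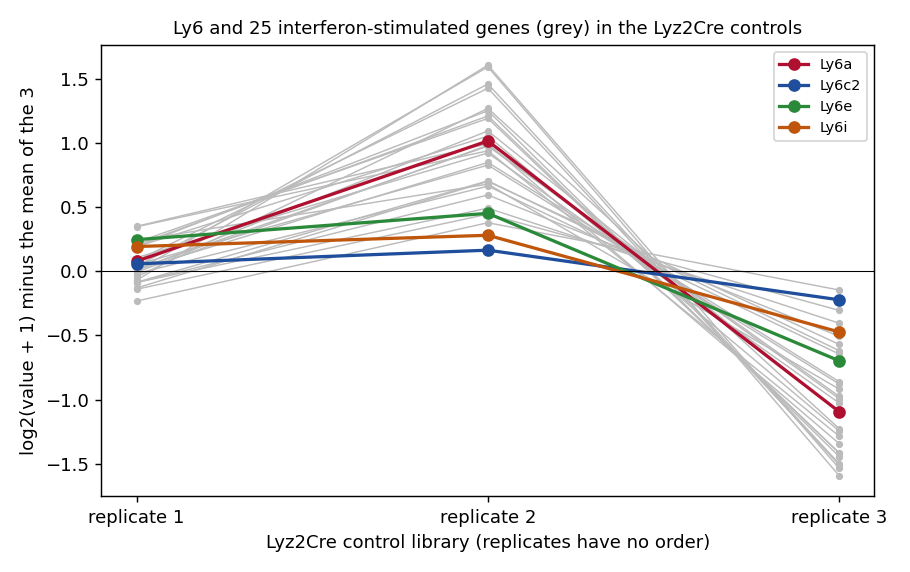
Log2(value + 1) of each gene minus its mean over the 3 Lyz2Cre control libraries, for Ly6a, Ly6c2, Ly6e and Ly6i (colour) and 25 interferon-stimulated genes (grey); lines join 1 gene across libraries. Replicate 2 is above the mean for every gene shown, and replicate 3 is below it, by 1.10 for Ly6a and 0.22 for Ly6c2.

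Other cell types could also carry these genes, and their part in the results was not tested. Monocyte markers, 8 of 8 detected, summed to 37810 to 53730 in Lyz2Cre controls, 65440 to 70320 with LPS, 11920 to 14260 in BHLHE40-Fl-labelled controls and 40470 to 41970 with LPS. Fn1 led the sum in 3 of these groups and Vcan in the BHLHE40-Fl-labelled LPS libraries. Ccr2, the receptor of inflammatory monocytes, averaged 72.1, 69.0, 54.5 and 9.67 in these groups. Neutrophil markers, 8 or 9 of 13 detected per group, summed to 26740 to 30840, 19770 to 20310, 1931 to 2046 and 4486 to 5015. Mmp8 led this sum in Lyz2Cre libraries and Csf3r under the other label, with Ly6g at 0 throughout and S100a9 at 0 in 3 groups. Mmp8, Ngp, Mmp9 and Camp were called lower under the BHLHE40-Fl label in both treatments. Csf3r averaged 1104 and 1408 in controls and 2162 and 4141 with LPS. Ltf (6.6 and 28.8) and Cxcr2 (1.63 and 22.0) were also higher under that label in controls. The neutrophil sums therefore do not stand for the whole list.

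T cell markers, 8 or 9 of 9 detected, summed to 10340 to 12170, 10550 to 10880, 28720 to 35760 and 11780 to 12350, led by Il7r, with Cd3e at 0 in both BHLHE40-Fl-labelled groups. In controls 6 of the 9 were lower and 1 higher under that label (median -1.80), and with LPS 5 and 1 (median -2.35), with Cd3g at -4.26 (adjusted p = 2.49e-06) in controls. Endothelial markers, in whose cells Ly6a and Ly6c1 are also known, summed to 351.8 to 551.2, 1567 to 1901, 863.7 to 931.5 and 2290 to 2297, with 7 or 8 of 9 detected and Emcn at 0 in 3 groups. Kdr led this sum in every group. Pecam1 and Flt1 were called lower under the BHLHE40-Fl label in controls, and Kdr and Esam higher. Cdh5 was called lower under that label with LPS, and Flt1 and Esam higher. The summed levels therefore do not stand for the whole list. Ly6c1 was near 0 in all 4 groups. Natural killer cell markers summed to 23.4 to 40.6, 48.2 to 88.3, 2.2 to 5.5 and 1.3 to 10.8, with 6 of 6 detected in the Lyz2Cre groups and Ncr1 at 0 in both others. B cell markers, 6 to 8 of 8 detected, summed to 2945 to 3290, 1813 to 2074, 2700 to 3115 and 1436 to 1680. Dendritic cell markers, 5 of 6 detected, summed to 5618 to 5933, 6024 to 6490, 11570 to 12990 and 10490 to 11290, with Cd209a at 0 in 3 groups. Itgax led this sum in every group. In controls Flt3 (-3.48) and Clec9a (-3.45) were called lower under the BHLHE40-Fl label, and Zbtb46 (1.95) and Itgax (1.125) higher. With LPS the same genes were called in the same directions.

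Mesothelial markers summed to 10.1 to 19.4 and 7.8 to 27.8 in the Lyz2Cre groups, with 5 of 8 detected, and to 1818 to 2496 and 1273 to 1605 in the BHLHE40-Fl-labelled groups, with 8 of 8. Fibroblast markers, 6 of 7 detected in Lyz2Cre and 7 of 7 under the other label, summed to 1935 to 2102, 3121 to 4608, 9521 to 12080 and 10800 to 14330. Large peritoneal macrophage markers, 10 of 10 detected, summed to 95650 to 131200, 196300 to 220200, 7337 to 7698 and 56640 to 60540, a sum led by Saa3 in the Lyz2Cre libraries. Between labels in controls 5 of these 10 were lower and 3 higher, and with LPS 4 and 3. Gata6, the defining transcription factor of these cells, was higher under the BHLHE40-Fl label, at means of 24.7 and 333 in controls (3.76, adjusted p = 6.15e-10) and 20.1 and 178 with LPS (3.08, adjusted p = 1.07e-08). Mitochondrial genes took 0.985% to 1.37%, 0.486% to 0.6%, 1.2% to 1.63% and 0.756% to 1.92% of the values. The ranges of the summed levels did not overlap between labels in either treatment for these lists, except for the B cell markers in controls, and the mitochondrial ranges of the controls overlapped.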

How the data were processed

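The deposited signal values of the 12 libraries are, judged from the values, whole read numbers that the authors scaled by 1 factor for each library and rounded to 1 decimal place. With a tolerance of 0.06, between 99.98% and 100% of a library's values were whole multiples of 1 step. The submitters' processing notes name mm10, STAR, Cufflinks and Cuffdiff, without role or version; for read counter, strand, annotation and read length nothing is given in the sources used here. The test was a limma 3.58.1 trend model (R 4.3.3) of log2(value + 1) with 4 group means over all 12 libraries and Benjamini-Hochberg adjustment. Script output was tested on simulated data. Alternatives used edgeR 4.0.16 and DESeq2 1.42.0 on recovered reads, other pseudocounts, filters and scalings, and single libraries left out. Folds are ratios of group means. The members, gene lists and the rules for naming genes (all members, up to 4 genes per list with the largest called changes, 3 nearest genes by likeness, leaving out predicted gene models and similar entries) were chosen with earlier results of these data known.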

Additional observations from a re-analysis of the deposited data

Results flagged for a closer look

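For 4 genes the change with LPS differed between the genotype labels by a direct test of the difference (limma, adjusted over all tested genes). The LPS change in BHLHE40-Fl-labelled libraries exceeded that in Lyz2Cre libraries by 3.063 for Ly6a, 3.08 for Ly6c2, 4.391 for Ly6e and 4.173 for Ly6i on the log2(value + 1) scale. In each case the BHLHE40-Fl-labelled controls were the lowest group.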

How the results depend on the processing

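Called genes stayed within 1.5 times the main number in all 114 alternative fits across the 5 comparisons. edgeR on recovered reads called 9799 and 10131 genes for LPS in Lyz2Cre and BHLHE40-Fl-labelled libraries, 6823 and 6999 between labels in controls and with LPS, and 3765 for the difference in LPS change. Of 563 alternative values for the members, 538 kept their direction and side of the threshold, 10 lost a call, 1 gained one and 14 changed sign. All 10 losses were Ly6a for LPS in Lyz2Cre: 0.60 (adjusted p = 0.372) with equal library totals, 1.09 (0.0783) with DESeq2, 1.33 (0.266) with a pseudocount of 0.1, 1.32 (0.0977) with the compared groups alone, 1.32 (0.0544) without a filter, and 5 of the fits that leave out 1 library, whose values ranged from 0.78 to 1.83 over all 12.

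For LPS in Lyz2Cre, signs changed with equal totals for Ly6c2 (-0.49), Ly6i (-0.39) and Ly6e (-0.49, adjusted p = 0.0403), with quantile normalization for Ly6c2 (-0.0056) and Ly6e (-0.85, adjusted p = 0.00174), and for Ly6e without Lyz2Cre control replicate 3 (-0.11, with 0.47 the highest value when 1 library was left out). The other sign changes were Ly6c1, on 1 to 6 reads a group, with 1 library left out: between -0.28 and 0.26 in controls, -1.04 and 0.37 with LPS and -1.02 and 0.40 for the difference in LPS change. For LPS in Lyz2Cre its values ran from 0.68 to 2.04, the latter a gained call without LPS replicate 3. Taking the main transcript's length turned the log2 ratio of Ly6i to Ly6c2 per kilobase from 1.46 to -0.28 in Lyz2Cre controls and from 1.54 to -0.19 with LPS, an alternative chosen after seeing the data. The cause of the losses and sign changes was not tested. The numbers did not pair the samples (18 same-number pairs, r from -0.0664 to 0.0277); a replicate block gave 9815, 10083, 6121, 7367 and 3528 called genes in the same order and changed no member's call. The compared groups alone were not run for the difference in LPS change. Depth limits Ly6c1 and the controls with 0 to 6 reads.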
